A study of Homo sapiens with 14 samples.

Results

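The earliest response of PANC-1 cells to grape proanthocyanidins (PA) was read from small RNA libraries made after 3 h of exposure. PANC-1 is an established human line from a pancreatic ductal carcinoma, grown here as monolayers in serum-containing medium, and it stands for 1 tumour only. The treated cells had received PA at 20 µg/ml for 3 h (libraries A and B), and the control cells had received the vehicle DMSO for 3 h (libraries A and B). These 4 libraries were chosen by their labelled treatment and time from the 14 of the series, whose other 10 libraries held PA at 12 and 24 h and DMSO at 0, 12 and 24 h, again as A and B. All 2848 entries of the deposited count table were followed, 2346 with a human miRNA name and 502 with a serial name only. Nothing in the labels ties A and B to separate cultures, although the design text names a biological replicate. The p-values thus measure the spread between libraries A and B of a group, taken over all 14 libraries unless only the 4 are named. That spread may be technical.

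Total counts were 2420626 and 3111014 in PA A and B, and 2762869 and 1781112 in DMSO A and B, within the series' range of 1032391 to 3111014. Of the 2848 entries, 2341 had at least 1 count in these 4 libraries, 994 had a count in each of them and 507 had none. A filter on low counts over the 14 libraries kept 810 entries (682 named, 128 unnamed) for testing, and these held about 99.9% of the counts of each library at 3 h. Levels are given as CPM, the count as a share of the TMM-scaled library total. Entries with an adjusted p under 0.05 are said to pass.

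A miRNA is a short RNA cut from a hairpin precursor by Drosha and Dicer and loaded into an Argonaute protein, where its seed, bases 2 to 8, pairs with target mRNAs and lowers their output. Many mature miRNAs are long-lived in cells, so a change in transcription can take hours to show in their level. Proanthocyanidins are oligomers and polymers of flavan-3-ols from plants. miR-21-5p, the most abundant miRNA here, represses the tumour suppressor PDCD4 and is high in pancreatic cancer.

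The mature sequences below, from RefSeq for build GRCh38.p14, belong to the named entry that rose at 3 h, to the most abundant miRNA and to abundant miRNAs with the narrowest fold bounds. Capitals mark the seed, bases 2 to 8. Of the 682 named entries tested, 597 matched the RefSeq table.
miR-7704: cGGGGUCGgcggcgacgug
miR-21-5p: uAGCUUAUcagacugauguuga
miR-24-3p: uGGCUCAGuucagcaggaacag
miR-27a-3p: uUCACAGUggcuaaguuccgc
miR-29a-3p: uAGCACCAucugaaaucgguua
let-7i-5p: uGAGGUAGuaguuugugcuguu
let-7g-5p: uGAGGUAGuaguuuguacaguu
A further pair is shown because miR-19b-3p had the lowest log2 fold change of the abundant miRNAs, without passing. It shares its seed with miR-19a-3p and differs from it in 1 base outside the seed.
miR-19b-3p: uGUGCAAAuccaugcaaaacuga
miR-19a-3p: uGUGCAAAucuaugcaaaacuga
The substitution, with miR-19b-3p as the first base and positions counted from the 5′ end, was C11U.

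The miR-7704 hairpin shows which other transcripts could give the same reads. It lies at chr2:176188843-176188901 on the plus strand (GRCh38), inside the coding part of a HOXD1 exon (chr2:176188802-176189453, plus strand) and inside an exon of the antisense gene HAGLR (chr2:176188814-176188958, minus strand). HOXD1 encodes a homeobox transcription factor. Capitals mark the mature miRNA in the 59-base hairpin, of which 74.6% is G or C.
MIR7704 hairpin: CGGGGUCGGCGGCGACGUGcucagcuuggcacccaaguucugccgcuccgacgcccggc
Among 206694 annotated transcripts searched, the mature sequence was found in 1 HOXD1 transcript and in MIR7704. The use of strand in counting was not given in the sources used here, so reads of miR-7704, HOXD1 mRNA and HAGLR cannot be told apart.

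At 3 h, 2 entries were higher with PA than with DMSO and 0 were lower, which is 0.247% of the 810 tested (edgeR quasi-likelihood test, Benjamini-Hochberg adjusted p under 0.05). The unnamed entry chr8_19924 stood at 461 and 309.4 CPM in the PA libraries, against 87.8 and 33.9 CPM in the DMSO libraries. The raw counts behind these levels were 1104 and 914 with PA and 230 and 58 with DMSO. The groups did not overlap, and both PA libraries at 3 h also lay above all 8 DMSO libraries of the series, of which the highest held 122.4 CPM. The log2 fold change was 2.63 ± 0.32 (SE, n = 2 each; 95% interval 1.94 to 3.32; edgeR adjusted p = 0.000914). When a library was left out, it ran from 2.14 (without DMSO B at 3 h) to 3.51 (without DMSO A at 3 h). The deposited table pairs this entry with neither a sequence nor a gene, so no role is given to it.

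miR-7704 was the other entry that rose. It stood at 95.6 and 48.4 CPM with PA, against 11.5 and 4.68 CPM with DMSO, from raw counts of 229 and 143 with PA and 30 and 8 with DMSO. Both PA libraries were above both DMSO libraries, and above the highest of all 8 DMSO libraries at 22.2 CPM. The log2 fold change was 3.07 ± 0.53 (SE, n = 2 each; 95% interval 1.94 to 4.21; edgeR adjusted p = 0.0118). In both groups library A stood above library B. When a library was left out, the log2 fold change ran from 2.50 (without PA A at 3 h) to 3.93 (without DMSO A at 3 h). Leaving out 1 library ended the call in 5 of 14 cases, with an edgeR adjusted p of 0.268 without the PA library A at 3 h, 0.0589 and 0.201 without the DMSO libraries A and B at 3 h, and 0.187 and 0.171 without the DMSO libraries A and B at 12 h. With only the 4 libraries at 3 h, miR-7704 passed (edgeR adjusted p = 0.0022) and chr8_19924 did not (0.202), at a log2 fold change of 2.61.

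**Figure D1:**
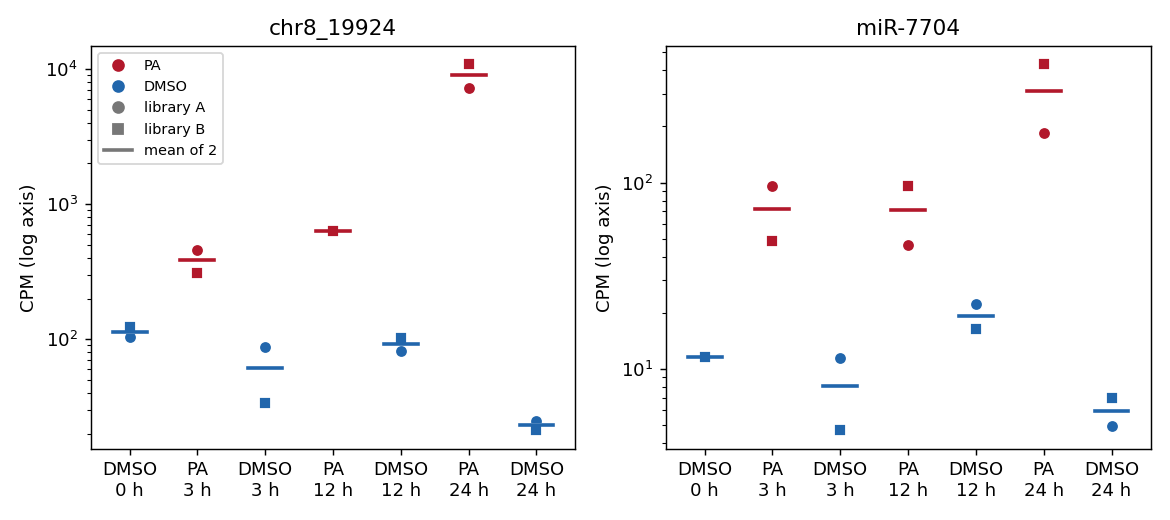
Level of chr8_19924 (left) and miR-7704 (right) in all 14 libraries, in CPM on a log axis, by treatment and time. Circles are library A, squares library B and bars the mean of 2, in red for PA and blue for DMSO. At 3 h the PA libraries of chr8_19924 held 461 and 309.4 CPM, against 87.8 and 33.9 CPM with DMSO, and those of miR-7704 held 95.6 and 48.4 CPM, against 11.5 and 4.68 CPM.

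Other miRNAs of the HOX clusters did not pass at 3 h. miR-10b-5p, whose hairpin ends 38431 bases upstream at chr2:176150303-176150412, stood at 311.9 and 271.2 CPM with PA, against 380 and 353.1 CPM with DMSO (log2 fold change -0.33). miR-10a-5p, from the HOXB cluster, had a log2 fold change of -0.12, miR-196a-5p of -0.01 and miR-615-3p of 0.01. The lowest was miR-196b-5p at -1.70, with 1.67 and 0.68 CPM with PA and 6.11 and 1.17 CPM with DMSO, and its interval of -4.28 to 0.77 included 0. Of 9 tested entries from HOX clusters, 4 were positive and 5 negative, and the 1 that passed was miR-7704 itself, already given above, beside 0.247% of all entries.

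With both of these included, 14 entries had an unadjusted p under 0.05 (1.73% of 810), 9 higher and 5 lower. miR-431-3p, from the imprinted 14q32 cluster, stood at 17.5 and 12.9 CPM with PA, against 4.58 and 4.68 CPM with DMSO, without overlap (log2 fold change 1.70 ± 0.51, edgeR adjusted p = 0.809). miR-6069 had no count in either PA library, against 17 and 3 counts in DMSO A and B. With a floor of 3 counts over the PA group this is at least 8.24-fold lower, and it did not pass (edgeR adjusted p = 0.521). miR-200c-3p, a repressor of ZEB1 and marker of epithelial cells, stood at 5.01 and 3.39 CPM with PA, against 6.87 and 13.4 CPM with DMSO (log2 fold change -1.24, interval -2.43 to -0.08, adjusted p = 1). Of the 5 tested members of the miR-200 family, 3 were positive and 2 negative, with a median of 0.16. miR-4488 had a log2 fold change of -3.32, chr9_21367 of 2.27, miR-873-3p of 1.14, chr19_35739 of 0.73 and chr2_5914 of -0.88, each with an edgeR adjusted p of 1. All but chr19_35739 averaged under 10 CPM.

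Both of the following are rich in G and C like miR-7704 (84.2% G or C) and stood lower with PA, without passing. They are shown for their base composition, with the seed in capitals. Both were chosen from the entries with the smallest p, not from all entries rich in G and C. Any part of base composition in the rise of miR-7704 was not tested.
miR-6069: gGGCUAGGgccugcugccccc
miR-4488: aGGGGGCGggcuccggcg
miR-6069 is 81% and miR-4488 88.9% G or C.

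**Figure D2:**
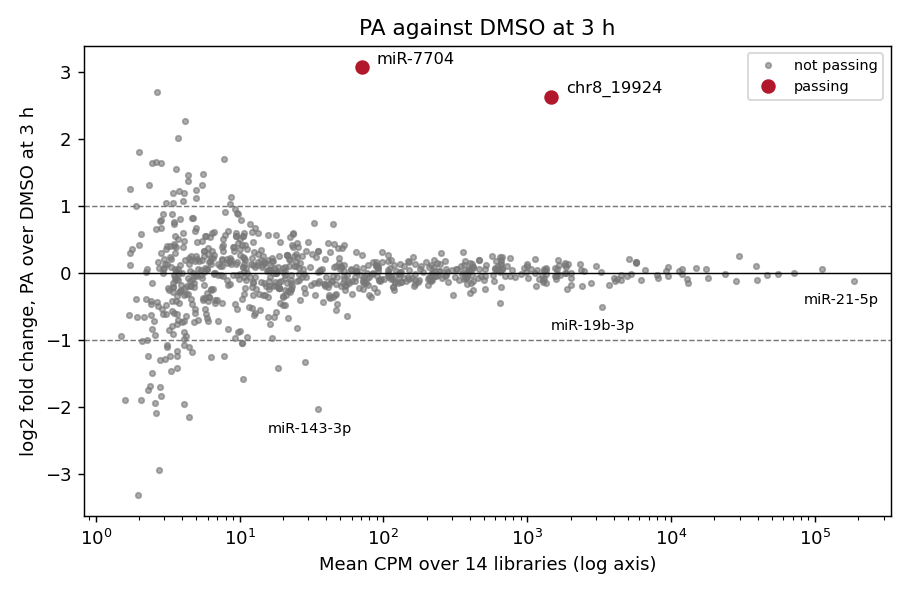
Log2 fold change of PA over DMSO at 3 h (vertical axis) against mean CPM over 14 libraries (horizontal log axis), 1 point per tested entry with an interval. The 2 red points passed (chr8_19924 at 2.63, miR-7704 at 3.07), and dashed lines mark 2-fold in either direction. The points narrow toward 0 as the level rises, to -0.12 for miR-21-5p.

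Across the 810 entries the log2 fold change was positive for 395 and negative for 413, with a median of -0.01 and quartiles of -0.19 and 0.17. It was smaller than 1 in size for 744. Between the groups, 262 entries (32.3%) did not overlap, 132 (16.3%) with both PA libraries above and 130 (16%) with both below. Over the 237 entries of at least 100 CPM, the median absolute log2 ratio between a PA and a DMSO library ran from 0.095 to 0.139 over the 4 pairs. It was 0.140 between PA A and PA B and 0.120 between DMSO A and DMSO B. By this measure the pair farthest apart across treatments, PA B and DMSO A, lay within the PA spread and beyond the DMSO spread. By chi-square over degrees of freedom of the tested counts, which weights the abundant entries, the same pair stood at 38.1, above 24.9 between the PA libraries and 13.4 between the DMSO libraries. The other three pairs across treatments ran from 7.95 to 20.4.

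**Figure D3:**
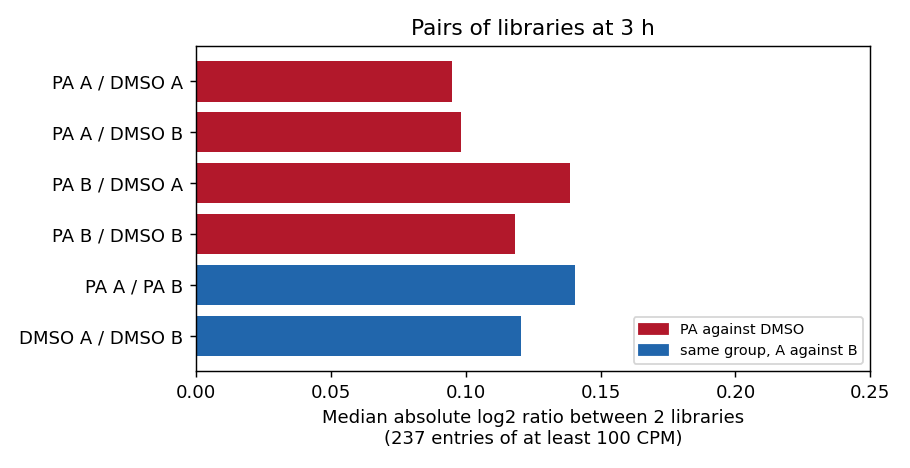
Median absolute log2 ratio between pairs of libraries at 3 h over 237 entries of at least 100 CPM, with PA against DMSO in red and the 2 libraries of 1 group in blue. The red bars end between 0.095 and 0.139, and the blue bars at 0.140 (PA) and 0.120 (DMSO).

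A fold bound says how large a change the data still allow. For each miRNA it is the end of the 95% interval of the fold change that lies farther from 1, taken in either direction. Of the named miRNAs, 75 averaged at least 1000 CPM and together held 92.7% of all counts. For 73 of them (97.3%) the whole interval lay within 2-fold of DMSO, and for 55 within 1.5-fold. The bounds had a median of 1.36-fold and ran from 1.22-fold to 2.36-fold. No single PA library differed from a single DMSO library by more than 1.59-fold in any of the 75. Their log2 fold changes ran from -0.50 to 0.25, 32 positive and 43 negative, and 23 did not overlap between groups (10 above and 13 below), which is 30.7% against 32.3% of all entries.

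The 20 most abundant miRNAs show this from the top. miR-21-5p stood at 224140 and 207789 CPM with PA, against 239598 and 229098 CPM with DMSO, both PA values just below both DMSO values. Its log2 fold change was -0.12, with an interval of -0.44 to 0.21, so a fall of more than 1.36-fold lies outside the interval. miR-100-5p, a repressor of MTOR, stood at 100525 and 115653 CPM with PA, on either side of 103209 and 104917 CPM with DMSO. The DMSO range of miR-100-5p lay inside its PA range, and the bound was 1.29-fold. miR-22-3p stood at 49841 and 47258 CPM with PA, against 55291 and 44149 CPM with DMSO (bound 1.36-fold). miR-146a-5p, an NF-kB-induced brake on IRAK1 and TRAF6, stood at 32181 and 34498 CPM with PA, against 32086 and 39989 CPM with DMSO (bound 1.33-fold). Both overlapped between the groups.

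The tightest bound belonged to miR-24-3p, at 23996 and 24899 CPM with PA and 25264 and 24057 CPM with DMSO (log2 fold change -0.01, bound 1.22-fold). Its partners in the miR-23/27/24 clusters had bounds of up to 1.32-fold. miR-27a-3p stood at 67943 and 77650 CPM with PA, against 74426 and 71888 CPM with DMSO (bound 1.23-fold). The bounds were 1.27-fold for miR-23b-3p, 1.30-fold for miR-23a-3p and 1.32-fold for miR-27b-3p. For miR-27b-3p both PA libraries lay above both DMSO libraries (log2 fold change 0.10). miR-29a-3p, which targets collagen and DNMT3 mRNAs, stood at 61570 and 63407 CPM with PA, against 63303 and 62901 CPM with DMSO (bound 1.23-fold). miR-30d-5p was bounded at 1.23-fold, miR-30c-5p at 1.26-fold, let-7b-5p at 1.28-fold and let-7f-5p at 1.28-fold. miR-3074-5p lies on the strand opposite miR-24-3p at the chromosome 9 copy, and without stated strand use their reads cannot be told apart. It had a log2 fold change of 0.08.

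**Figure D4:**
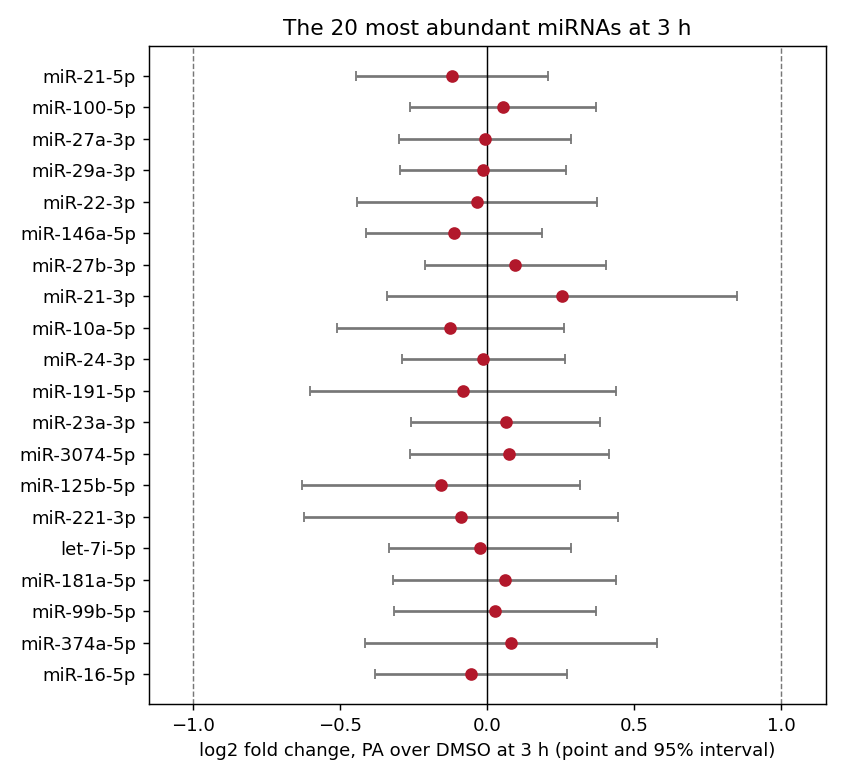
Log2 fold change of PA over DMSO at 3 h for the 20 most abundant miRNAs, most abundant at the top, as points with 95% intervals from edgeR. Dashed lines mark 2-fold. Every interval shown lies inside them, and the widest, that of miR-21-3p, runs from -0.34 to 0.85.

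The pair not held within 2-fold were miR-19b-3p and miR-4687-5p. miR-19b-3p, from the miR-17-92 cluster, stood at 2798 and 2315 CPM with PA, against 3574 and 3681 CPM with DMSO. Both PA libraries were lower, with a log2 fold change of -0.50 ± 0.34 and an interval of -1.24 to 0.23. With only the 4 libraries at 3 h, the log2 fold change was -0.50 ± 0.12 and the edgeR adjusted p 0.202 (unadjusted 0.000823). miR-19a-3p, with the same seed, stood at 541.6 and 406.2 CPM with PA, against 644.3 and 655.3 CPM with DMSO (log2 fold change -0.46). The sequences differ in a single base, and how reads matching more than 1 entry were assigned was not given in the sources used here. miR-4687-5p overlapped between groups, at 1041 and 841.2 CPM with PA and 887.6 and 1090 CPM with DMSO (bound 2.15-fold). With only the 4 libraries at 3 h, both were held within 2-fold, with bounds of 1.68-fold for miR-19b-3p and 1.29-fold for miR-4687-5p.

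Precision fell with the level. Of 137 named miRNAs between 100 and 1000 CPM, 135 were held within 2-fold, with a median bound of 1.43-fold. Between 10 and 100 CPM it was 145 of 244 (59.4%), with a median bound of 1.88-fold. Under 10 CPM it was 3 of 226 (1.33%), with a median bound of 4.34-fold. Among entries of at least 100 CPM, chr8_19924 had the highest log2 fold change, followed by miR-556-5p (0.32), miR-197-3p (0.29), miR-539-3p (0.27) and miR-21-3p (0.25). The lowest were miR-19b-3p (-0.50), miR-19a-3p (-0.46), miR-10b-5p (-0.33), miR-370-3p (-0.30) and miR-1307-3p (-0.25). Only chr8_19924 of these passed.

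**Figure D5:**
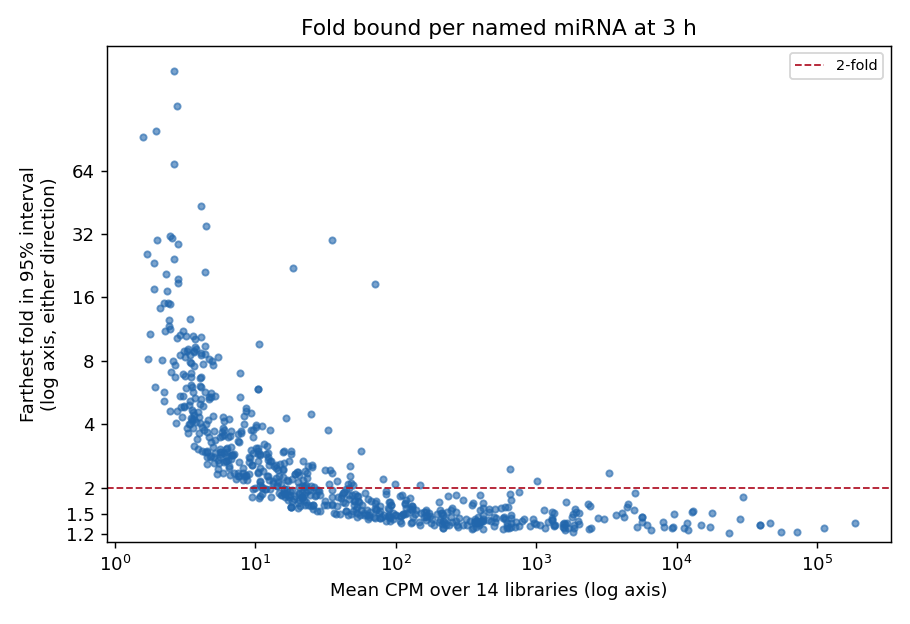
Fold bound at 3 h (farthest fold within the 95% interval in either direction, log axis) against mean CPM over 14 libraries (log axis), 1 point per named miRNA tested. The dashed line marks 2-fold. Of the 75 miRNAs at 1000 CPM or more, 73 lie under the line, against 3 of 226 under 10 CPM.

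No tested member of the family lists passed in either direction, beside 0.247% of all entries. These lists held 67 distinct tested miRNAs, of which 57 were within 2-fold, with a median log2 fold change of -0.02 against -0.01 over all entries. In the let-7 and miR-98 family, repressors of HMGA2 and LIN28, 8 of 9 were within 2-fold. The 6 abundant members that share the seed GAGGUAG summed to 38821 and 38165 CPM with PA, against 39309 and 38030 CPM with DMSO, with no bound above 1.33-fold. In the miR-17-92 and paralogous clusters, which MYC activates, 10 of 11 tested members were negative and 1 positive, with a median of -0.09. Over all 810 entries, 413 were negative, and any part of MYC was not tested. The cluster sums were 20278 and 18540 CPM with PA, against 21580 and 22281 CPM with DMSO, without overlap. The 4 abundant members with the seed AAAGUGC, miR-17-5p, miR-20a-5p, miR-93-5p and miR-106b-5p, ran from -0.18 to -0.02. In the miR-17-92 list 8 of 11 were within 2-fold, and in the low-abundance miR-200 family 2 of 5. The miR-200 members ran from -1.24 (miR-200c-3p) to 0.45, 3 positive and 2 negative, with a median of 0.16. In the miR-30, miR-29 and miR-23/27/24 lists every tested member was within 2-fold. The miR-15/16 list had 5 of 7 within 2-fold, and miR-15b-5p stood lowest at -0.25.

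Lists of miRNAs tied to signalling pathways gave no passing entry either, beside 0.247% of all entries. Of 12 NF-kB and inflammation miRNAs, 4 were positive and 8 negative, and 11 were within 2-fold. The exception was miR-155-5p, at 18 and 14.9 CPM with PA and 9.93 and 18.7 CPM with DMSO. Of 9 tested p53-responsive miRNAs, 7 were within 2-fold. miR-34a-5p, a direct p53 target, stood at 151.6 and 137.1 CPM with PA, against 125.7 and 136.8 CPM with DMSO (log2 fold change 0.14, bound 1.57-fold). miR-210-3p, induced by HIF, stood at 1487 and 1664 CPM with PA, against 1456 and 1379 CPM with DMSO (log2 fold change 0.15, bound 1.46-fold). The early-response miRNA miR-132-3p, a CREB target, stood at 59.3 and 69.7 CPM with PA, inside the DMSO range of 74.5 and 50.9 CPM. miR-33a-5p, hosted by SREBF2 and a repressor of ABCA1, stood at 107.3 and 147.6 CPM with PA, on either side of 134.1 and 134.5 CPM with DMSO. Of 9 tested miRNAs linked to redox control, 4 were positive and 5 negative. Of 11 MYC-regulated miRNAs, most of them also in the family lists, 10 were negative, with a median of -0.07, beside 413 negative of all 810 entries. This list was not split by whether MYC raises or lowers its members, and any part of MYC was not tested.

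Of 13 tested miRNAs reported high in pancreatic cancer, 4 were positive and 9 negative, and 11 were within 2-fold. miR-221-3p, a repressor of p27, stood at 12189 and 11656 CPM with PA, against 13544 and 11797 CPM with DMSO (bound 1.54-fold). Of 15 tested miRNAs reported as growth-suppressive in it, 5 were positive and 10 negative, and 11 were within 2-fold. miR-96-5p, a repressor of FOXO1, stood at 4080 and 4518 CPM with PA, inside the DMSO range of 4055 and 5250 CPM (bound 1.67-fold). In the 14q32 cluster, 31 of 52 tested entries were positive and 21 negative, with a median of 0.04.

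Where both arms of a hairpin averaged at least 100 CPM (32 of 162 hairpins), the arms had the same sign in 11. Their log2 fold changes differed by a median of 0.17 and at most 0.39, in miR-425. Among the 32, miR-423-5p and miR-3184-3p had identical counts, with a log2 fold change of 0.002. The same counts thus entered both hairpins, with opposite signs in miR-423 and the same sign in miR-3184. For miR-21 the ratio of the 5p to the 3p arm was 8.53 and 5.34 with PA, against 9.18 and 8.02 with DMSO. PA B was the lowest of the 4, and miR-21-3p itself stood at 26278 and 38925 CPM with PA, against 26091 and 28563 CPM with DMSO.

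Markers of other cell types and of RNA quality were set beside these values. The 14 tested entries that overlap tRNA, rRNA, U2 or snoRNA included no passing member, beside 0.247% of all entries. Their list summed to 4649 and 4912 CPM with PA, against 4234 and 4349 CPM with DMSO, most of it miR-4454. Both PA sums were higher, and the part of this in the results was not tested. The fibroblast and endothelial list had a median log2 fold change of -1.05 over 7 tested members, 2 positive and 5 negative. None of them passed, beside 0.247% of all entries. miR-143-3p, its smooth muscle and fibroblast marker, stood at 12.1 and 15.2 CPM with PA, against 85.2 and 26.3 CPM with DMSO, and DMSO A stood apart. The list's sums overlapped, at 1300 and 1479 CPM with PA and 1587 and 1378 CPM with DMSO, mostly miR-126-3p and miR-126-5p. Haematopoietic markers summed to 2.09 and 2.37 CPM with PA and 2.67 and 4.68 CPM with DMSO. Red blood cell markers summed to 296.5 and 387.9 CPM with PA and 314.7 and 332.6 CPM with DMSO. Only miR-486-5p of this list was tested, and its miR-144-5p had no count in the 4 libraries. Liver, muscle and neuron markers summed to 1659 and 1713 CPM with PA and 1564 and 1691 CPM with DMSO, nearly all miR-9-5p. In that list miR-206 had no count. Epithelial markers, the miR-200 family and miR-205-5p, summed to 68.9 and 78.5 CPM with PA and 76.4 and 70.2 CPM with DMSO. Acinar and islet markers summed to 107.7 and 102.9 CPM with PA and 110.4 and 111.7 CPM with DMSO, nearly all miR-7-5p. Of the 2 tested members of that list, 1 was positive (log2 fold change 1.07) and 1 negative (-0.13), neither passing. In bulk libraries fewer cells of a type and less RNA per cell cannot be told apart. The part of these markers in the results was not tested.

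The 3 h values were then set against later times, which have DMSO libraries of their own. At 12 h, 90 entries (11.1%) passed, 51 higher (6.3%) and 39 lower (4.81%), and at 24 h, 54 (6.67%), 35 higher (4.32%) and 19 lower (2.35%). Of the 51 higher at 12 h, 30 were positive at 3 h, with a median log2 fold change there of 0.05. Of the 39 lower at 12 h, 31 were negative at 3 h, with a median of -0.11. Of the 35 higher at 24 h, 25 were positive at 3 h, with a median of 0.06, and of the 19 lower, 14 were negative, with a median of -0.09. Over all entries tested, 48.8% were positive at 3 h. Of those with an interval, 44 of the 51 higher and 26 of the 39 lower at 12 h were within 2-fold at 3 h. So were 16 of 34 higher and 17 of 19 lower at 24 h, beside 398 of 804 over all entries. These shares were not matched for level, and of named entries under 10 CPM only 3 of 226 were held within 2-fold.

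Entries that passed at both 12 and 24 h in the same direction were 5. chr8_19924 and miR-7704 were also higher at 3 h. The other three stood near 0 at 3 h, with log2 fold changes of -0.17 for miR-6715b-3p, 0.02 for chr13_28163 and -0.01 for miR-27a-3p. For chr8_19924 the log2 fold change was 2.63 at 3 h, 2.78 at 12 h and 8.60 at 24 h. The test of the difference itself gave 5.97 for 24 h minus 3 h (edgeR adjusted p = 3.15e-06) and 0.15 for 12 h minus 3 h (adjusted p = 0.919). For miR-7704 the values were 3.07, 1.87 and 5.68, and the difference between 24 h and 3 h, 2.61, did not pass (adjusted p = 0.131).

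The effect of PA differed between 12 h and 3 h in 10 entries (1.23% of 810), 7 more positive and 3 more negative at 12 h. It differed between 24 h and 3 h in 10 entries (1.23%), all more positive at 24 h. When 1 library was left out, the first count ran from 0 (PA A at 3 h left out) to 39 (DMSO A at 12 h left out), and the second from 3 (among others, PA A at 3 h left out) to 19 (PA A at 24 h left out). At 12 h the DMSO libraries A and B differed more from each other than at 3 h, with a median absolute log2 ratio of 0.329 against 0.120. The common biological coefficient of variation was 0.203 in the fit of 14 libraries and 0.104 in a fit of the 4 libraries at 3 h. In that smaller fit 39 of 673 entries (5.79%) had an unadjusted p under 0.05, 18 higher and 21 lower, and 1 passed. The intervals given above come from the fit of 14 libraries, except where only the 4 libraries are named. For chr8_19924 the smaller fit gave a wider interval, 1.59 to 3.63. For miR-7704 it gave a narrower one, 2.15 to 3.98.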

How the data were processed

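The authors deposited read counts per mature miRNA entry and library, which were used as raw counts. A deposited TPM table was not used. The submitters' processing notes name build GRCh38 and the tools bcl2fastq, Bowtie and edgeR. Their versions, the annotation, strand use and the handling of reads that match several entries are not given in the sources used here. Each count column matched a library title, and 0 were left over.

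Counts were fitted in R 4.3.3 with edgeR 4.0.16 (TMM, filterByExpr with minimum count 10 and minimum total 15, robust glmQLFit, quasi-likelihood F test) over 14 libraries in 7 groups of 2, and PA was compared with DMSO at 3 h. Differences between times came from the same fit. Standard errors and 95% intervals are Wald values of that fit, per entry and not simultaneous. For a group without counts, 3 counts over both libraries served as the floor, which covers counting error only, since PCR copies are no independent molecules. DESeq2 1.42.0 served as an alternative. The scripts were tested on simulated data.

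Named entries were those passing, the 10 smallest p, the 20 most abundant named, the 10 highest and 10 lowest log2 fold changes at 100 CPM or more, abundant miRNAs outside 2-fold, the 10 tightest bounds, members of the lists, and those passing at 12 and 24 h in the same direction. The members and lists were chosen with earlier results of these data known. Of 220 list members, 215 were found under that name and 182 were tested. In 13 sets of entries, such as miR-103a-3p and miR-103b, the counts were identical, and both are counted among the 75 abundant miRNAs. The letters A and B were not taken as pairs: same-letter deviations correlated at 0.31 between PA and DMSO at 3 h, and between -0.43 and 0.63 over 21 pairs of groups, with 7 above 0.1.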

Additional observations from a re-analysis of the deposited data

Results flagged for a closer look

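Each named entry below was singled out because the test of the difference between the PA effects at 2 times passed (edgeR quasi-likelihood test, Benjamini-Hochberg adjusted p under 0.05). Values are the log2 fold change at the later time minus that at 3 h.

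For 12 h minus 3 h, the difference was 2.51 for miR-96-5p, 1.70 for miR-33a-5p, 1.56 for miR-377-3p, 1.21 for miR-210-3p and 0.95 for miR-27a-3p. It was -1.35 for miR-146b-5p and -1.74 for miR-99a-5p. At 3 h these 7 lay between -0.11 and 0.15. At 12 h, miR-96-5p stood at 5815 and 7726 CPM with PA, against 1639 and 938.5 CPM with DMSO, while the DMSO libraries at 3 h held 4055 and 5250 CPM and those at 24 h 5209 and 4293 CPM. miR-99a-5p stood at 178.5 and 225.8 CPM with PA at 12 h, against 948.8 and 432 CPM with DMSO, while the DMSO libraries at 3 h held 183.7 and 203.4 CPM. In both, the DMSO libraries at 12 h stood apart from the other DMSO libraries. The part of this in the differences was not tested.

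For 24 h minus 3 h, the difference was 5.97 for chr8_19924 and 2.83 for chr13_28163. chr13_28163 stood at 92.7 and 138.5 CPM with PA and 119.2 and 108.7 CPM with DMSO at 3 h, and at 306.3 and 348.1 CPM with PA against 54.9 and 35.5 CPM with DMSO at 24 h. For miR-6069 the fitted difference was 11.17, which rests on 0 counts in both PA libraries at 3 h, depends on the fit's prior count and is no bound.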

How the results depend on the processing

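The count of 2 passing entries at 3 h was 2 with total-count or RLE scaling, DESeq2, a stricter filter or the replicate block, 3 with no filter (miR-6069 added, adjusted p = 0.0405), 1 with only the 4 libraries at 3 h, and 1 to 2 when a library was left out. chr8_19924 passed in 22 of 23 alternatives (log2 fold change 2.14 to 3.51) and miR-7704 in 18 of 23 (2.50 to 3.93). The count of 73 bounded abundant miRNAs was 70 to 76 when a library was left out, 74 of 74 with only the 4 libraries, 53 of 75 with Bonferroni intervals, and 208 of 212 when a mean of 100 CPM sufficed. Differing effects at 24 h (10) numbered 21 with no filter, 9 with the block and 3 to 19 when a library was left out. Those at 12 h (10) numbered 19, 9 and 0 to 39, with 39 when DMSO 12 h A and 0 when PA 3 h A was left out. For 24 h minus 3 h the count was 3 without PA 24 h B, PA 3 h A or either DMSO library at 24 h, 4 without PA 3 h B or DMSO 3 h A, and 19 without PA 24 h A. For 12 h minus 3 h it was also 16 or 18 without PA 24 h A or B in turn, 1 without PA 12 h A or DMSO 3 h B, 4 without DMSO 3 h A and 5 without DMSO 12 h B. Leaving out a library leaves a group of 1, assumed to vary like the others, and changes the filter; other causes were not tested. The replicate block with only the 4 libraries, an alternative chosen after seeing the data, gave 3 passing entries, with miR-19b-3p added (adjusted p = 0.0492), and 74 bounded miRNAs. Few entries under 10 CPM (3 of 226) were held within 2-fold; counting error and library spread were not separated there.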
